A study of Mus musculus with 7 samples.

Results

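The comparison of somatostatin (SST) with parvalbumin (PV) interneurons used 4 of the 7 samples of the series, ATAC-Seq libraries of 2 SST and 2 PV animals, and 31990 of 323369 reference regions, which were all the regions that passed a filter on low counts. SST nuclei came from Sst-IRES-Cre mice and PV nuclei from Pv-Cre mice, each crossed to the SUN1-2xsfGFP-6xMYC allele, so that Cre puts a green nuclear envelope tag on the cells in which it is or has been active. Tagged nuclei were purified from whole cortex of uninjected mice 6 to 12 weeks old, 1 animal a library, and the transposase in ATAC-Seq cut where their DNA was accessible. GEO labels give the mice as male, whereas the methods of the study name both sexes. Each group is a single Cre line, so a difference between SST and PV cannot be told apart from one between the drivers. A pair of VIP interneuron libraries (Vip-IRES-Cre, same tag) was used only to place the regions that differed, and nuclei of visual cortex from C57BL/6J mice, 6 to 10 weeks old and injected with an AAV library of candidate elements, only for RNA. SST libraries held 1905068 and 2256073 reads in the reference regions and PV libraries 1966589 and 1801883.

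SST and PV interneurons both arise in the medial ganglionic eminence, the ventral forebrain zone in which NKX2-1 and then LHX6 set their fate. In adult cortex SST cells mostly contact the dendrites of pyramidal cells and release peptides beside GABA, while PV cells, mostly basket cells, contact somata and fire at high rates with the help of Kv3 potassium channels. Accessible DNA away from gene starts holds most of the enhancers that tell one neuronal subtype from another.

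The 7 sequences printed here, read from the mouse genome build GRCm38, are those on which the account of gene starts and motifs turns. Capitals mark matches to the 16 short motifs that were searched in every region. The first is the Sst start as RefSeq gives it, chr16:23890795-23891094 on the minus strand, from 250 bases before to 50 after the start, and its capitals are the cAMP response element that CREB binds. The other 6 are the central 300 bases of a region, plus strand.
Sst start: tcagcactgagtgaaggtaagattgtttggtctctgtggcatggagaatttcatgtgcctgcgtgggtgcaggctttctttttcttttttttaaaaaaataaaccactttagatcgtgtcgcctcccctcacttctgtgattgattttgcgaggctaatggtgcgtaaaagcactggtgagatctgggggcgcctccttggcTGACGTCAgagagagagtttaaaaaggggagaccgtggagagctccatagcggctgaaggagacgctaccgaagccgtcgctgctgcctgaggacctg
In the Kcnj2 region, chr11:111818145-111818444, the capitals are a POU motif, a MAF motif and an E-box. This region was higher in SST.
Kcnj2 region: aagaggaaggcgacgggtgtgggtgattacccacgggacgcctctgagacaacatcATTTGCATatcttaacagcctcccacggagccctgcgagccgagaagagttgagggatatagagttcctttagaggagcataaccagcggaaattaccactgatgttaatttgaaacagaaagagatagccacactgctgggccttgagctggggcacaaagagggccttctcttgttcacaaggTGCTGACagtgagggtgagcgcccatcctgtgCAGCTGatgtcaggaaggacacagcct
The Palm region, chr10:79803714-79804013, was the one with the smallest p among SST-higher regions with an RFX motif, and it holds an E-box too.
Palm region: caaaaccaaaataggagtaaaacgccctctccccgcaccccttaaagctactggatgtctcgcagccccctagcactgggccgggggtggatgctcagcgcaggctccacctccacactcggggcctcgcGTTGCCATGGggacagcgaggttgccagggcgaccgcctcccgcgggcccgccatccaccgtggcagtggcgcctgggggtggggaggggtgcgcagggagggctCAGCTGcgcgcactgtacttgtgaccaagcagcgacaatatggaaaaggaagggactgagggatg
The Pvalb intron region, chr15:78195512-78195811, has an E-box as its sole match and was higher in PV.
Pvalb region: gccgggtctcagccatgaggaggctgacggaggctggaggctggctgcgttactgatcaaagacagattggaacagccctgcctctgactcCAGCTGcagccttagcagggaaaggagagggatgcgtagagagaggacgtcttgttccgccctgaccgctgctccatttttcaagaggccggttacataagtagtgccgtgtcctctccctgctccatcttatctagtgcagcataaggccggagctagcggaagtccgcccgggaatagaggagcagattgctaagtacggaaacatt
The Esrrb intron region, chr12:86498760-86499059, was higher in PV, and its capitals are 2 E-boxes and a MEF2 motif.
Esrrb region: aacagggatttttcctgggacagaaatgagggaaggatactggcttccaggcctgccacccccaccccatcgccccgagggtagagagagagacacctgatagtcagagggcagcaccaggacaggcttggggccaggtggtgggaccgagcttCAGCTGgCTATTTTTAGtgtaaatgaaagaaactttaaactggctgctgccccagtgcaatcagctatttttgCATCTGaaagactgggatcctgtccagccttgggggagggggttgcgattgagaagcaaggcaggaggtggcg
The Tmc1 region, chr19:21048506-21048805, had the smallest p among PV-higher regions with the motif of the oestrogen-related receptors (ERR).
Tmc1 region: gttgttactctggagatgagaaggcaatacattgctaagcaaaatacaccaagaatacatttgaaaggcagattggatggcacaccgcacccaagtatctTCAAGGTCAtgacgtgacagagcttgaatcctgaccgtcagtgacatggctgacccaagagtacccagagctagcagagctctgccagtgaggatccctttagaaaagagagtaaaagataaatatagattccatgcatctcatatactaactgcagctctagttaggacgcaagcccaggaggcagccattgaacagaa
The B3gat1 region, chr9:26681624-26681923, was chosen in the same way for a ROR-type motif and has an E-box as well.
B3gat1 region: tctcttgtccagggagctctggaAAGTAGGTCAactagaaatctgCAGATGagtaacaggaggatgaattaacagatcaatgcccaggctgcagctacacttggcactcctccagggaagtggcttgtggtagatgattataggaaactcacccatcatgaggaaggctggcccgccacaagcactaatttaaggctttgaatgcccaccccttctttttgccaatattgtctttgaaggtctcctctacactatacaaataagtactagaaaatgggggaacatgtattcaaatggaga

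Of the 31990 regions, 1192 (3.73%) were higher in SST and 1402 (4.38%) were higher in PV at a false discovery rate of 5% (edgeR's quasi-likelihood test, Benjamini-Hochberg), 8.11% in either direction. The median difference was 2.26 on the log2 scale in the former and -2.18 in the latter, 4.80-fold and 4.53-fold, against 0.01 over all tested regions. Both SST samples exceeded both PV samples in CPM, the reads scaled to library size, in 26.9% of all tested regions and lay below both in 26.1%, so the separation of 2 samples from 2 is common here and says little by itself. The plot of SST against PV accessibility shows the called regions as bands on either side of the diagonal. The smallest adjusted p was 0.0103, and no region was under 0.01. Called regions were thin, with a median of 54 (SST) and 49 (PV) reads over the 4 libraries, against 81 over all tested. A region almost closed in one group passed the filter only through its reads in the other, so no share of members is read as support. DESeq2 called 176 and 171 regions, all of them among those of edgeR and in the same direction. Without PV replicate 1 the counts were 170 and 196, without PV replicate 2 254 and 322, without SST replicate 1 5123 and 4306 of 43334 (11.8% and 9.94%), and with loess scaling 1413 and 993, which turned the split from 46.0% to 58.7% SST-higher. A fit without a library has 1 library in that group, which is assumed to vary as the pair of the other group does, and such fits cannot show which library is atypical.

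**Figure D1:**
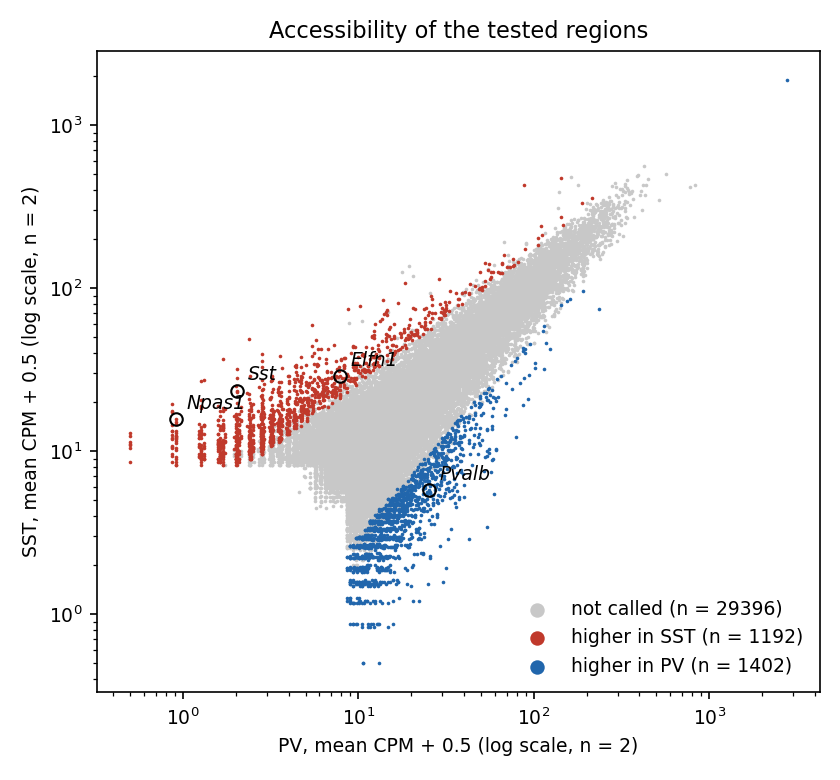
Mean CPM of each tested region in the PV libraries (horizontal) and the SST libraries (vertical), both plus 0.5 and on log scales, with 1192 regions higher in SST in red, 1402 higher in PV in blue and the others in grey. Circles mark the region with the smallest adjusted p at Sst, Npas1, Elfn1 and Pvalb; the first 3 lie above the diagonal and Pvalb below it.

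Regions that differed lay away from gene starts. Promoters were taken as regions with any base within 1 kb of a protein-coding start. They made up 46.4% of all tested regions, 15.4% of the SST-higher and 7.06% of the PV-higher. Of 14858 tested promoters, 183 (1.23%) were higher in SST and 99 (0.666%) in PV, whereas of 7004 introns 379 (5.41%) and 604 (8.62%) were. Intergenic regions were called at 6.72% and 7.25%, exons at 4.44% and 5.66%. The median distance to the nearest protein-coding start was 44.6 kb for SST-higher and 51.7 kb for PV-higher regions, against 9.01 kb over all tested. Promoters took 55.6% and 53.5% of the reads in the SST libraries and 52.1% and 50.1% in the PV libraries, so the libraries themselves differed in the same direction as the promoter shares of the calls. What part this had in the shares was not tested.

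Conservation of the called regions was close to that of all tested regions. The median of the mean phyloP score, which is above 0 where bases change more slowly than expected across placental mammals, was 0.139 in SST-higher and 0.144 in PV-higher regions and 0.156 over all tested. A score above 0.5 was found in 16.6% of the SST-higher regions, 15.2% of the PV-higher and 19.1% of all tested. For regions over 1 kb from every start, distance was taken from the middle, so some regions counted as promoters remain among them. There the shares were 16.1%, 13.8% and 15.3%, so that SST-higher regions lay just above all tested ones and PV-higher regions just below. The median scores there were 0.137, 0.136 and 0.113, with both groups above all tested. Scores below 0 were found in 20.4% of SST-higher and 18.4% of PV-higher regions. Within exons the share above 0.5 was 38.4% in SST-higher, 27.0% in PV-higher and 31.1% in all tested regions, and within promoters it was 20.8%, 36.4% and 24.1%. These differences were not tested.

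**Figure D2:**
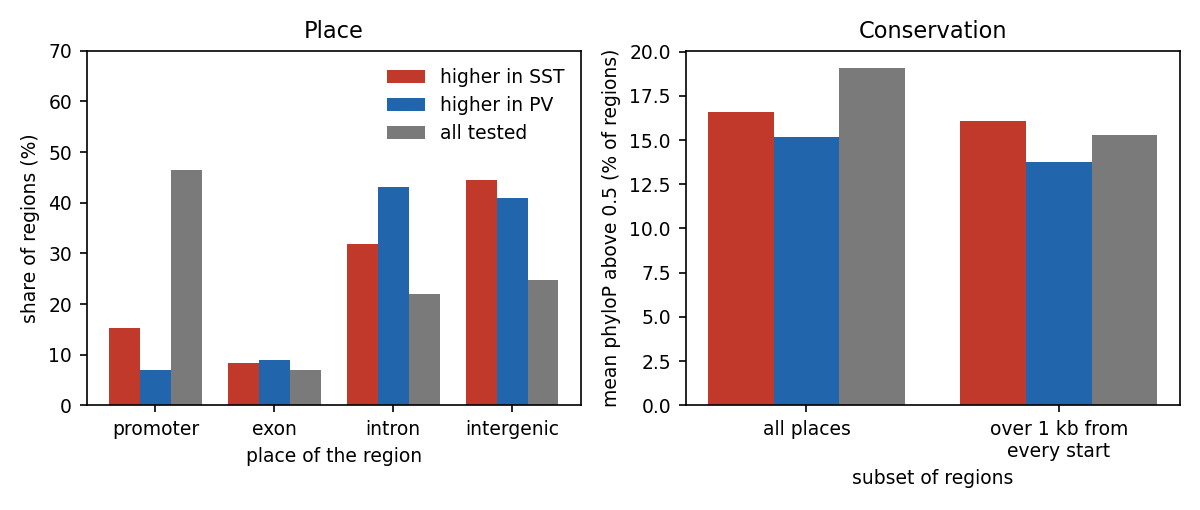
Left, the share of regions (%) that are promoters, exons, introns or intergenic; right, the share (%) with a mean phyloP above 0.5 in all places and over 1 kb from every start. Bars are shares over all regions of a group without error bars: promoters are 46.4% of all tested regions but 15.4% and 7.06% of those higher in SST and PV, and the conservation shares of the 3 groups lie between 13.8% and 19.1%.

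The 12 SST-higher regions with the smallest p, 1 for each nearest gene, were near Spata13, Ice1, Pirt, Kcnj2, Pik3c3, Spred2, Hs3st3b1, Rcl1, Slc30a9, Tmsb10, Rpl34 and Dcp2, and 11 of them lay outside promoters. A region at chr14:60554125-60554947, 79.5 kb before the start of Spata13, a guanine nucleotide exchange factor gene, had 63 and 75 reads in SST and 4 and 1 in PV. Its difference was 4.59 (SE 0.52, adjusted p = 0.0103, edgeR). In VIP this region had 7 and 12 reads, far below SST. Each SE of an accessibility difference is derived from the test's F value. It can fall below counting error where a group has almost no reads. The region nearest to Kcnj2, the gene of an inward rectifier potassium channel, was 752 kb from its start at chr11:111817910-111818679 and had 115 and 122 reads in SST, 22 and 13 in PV and 2 and 9 in VIP. It differed by 2.63 (SE 0.34, adjusted p = 0.0103, edgeR), and its mean phyloP of 0.820 was the highest of the 12. At the start of Tmsb10, which encodes an actin monomer binding thymosin, SST had 68 and 145 reads and PV 9 and 12. Here VIP, with 134 and 140, lay with SST, and the difference of SST from PV was 3.17 (SE 0.43, adjusted p = 0.0103, edgeR). A region 65.4 kb from Pirt had 44 and 45 reads in SST, 2 in each PV library and 25 in each VIP library. The 12 differences ran from 2.00 near Dcp2 to 4.87 near Rpl34.

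The 12 PV-higher regions chosen in the same way were near AC117239.2, Rnf32, Gpr158, Gm26897, Fam209, Elk3, Lmbrd2, Gm34302, 4933415F23Rik, Pappa2, Nfib and Zfp407, and not one was a promoter. At chr5:28919272-28919960, 276 kb from the start of Rnf32, PV had 84 and 57 reads, SST 6 and 2 and VIP 4 and 8. The difference was -4.21 (SE 0.50, adjusted p = 0.0103, edgeR). A region 23.5 kb before Gpr158, an orphan receptor gene of neurons, had 58 and 52 reads in PV, 2 and 5 in SST and 22 and 19 in VIP, so that VIP stood between the others. In an intron of Nfib, which encodes a nuclear factor I transcription factor, PV had 79 and 55 reads and SST 9 and 11. VIP was higher than either there, with 129 and 198. An intron region of Elk3, an ETS factor gene, had 110 and 94 reads in PV, 12 and 22 in SST and 10 and 11 in VIP. Differences in this set ran from -4.71 near Fam209 to -2.71 in Elk3.

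**Figure D3:**
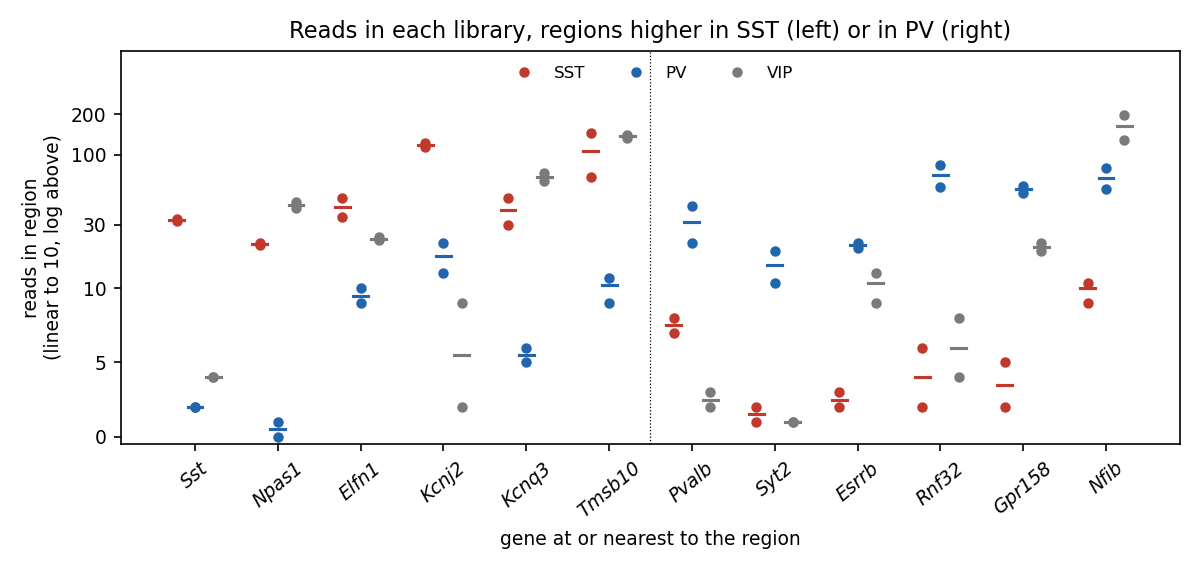
Reads of single libraries (points) and their mean (bars) in 12 regions, by the gene they lie in or nearest to, in SST (red), PV (blue) and VIP (grey), on an axis that is linear to 10 and logarithmic above. The regions were picked among calls, so SST and PV stand apart by choice; VIP lies at the low level in Sst, Kcnj2, Pvalb, Syt2 and Rnf32 and within or above the range of the higher group in Npas1, Kcnq3, Tmsb10 and Nfib.

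The VIP libraries, which took no part in the test, most often lay on the side of the lower group. In 1097 of 1402 PV-higher regions (78.2%) the mean VIP level was nearer to SST than to PV on the log2 scale, and in 721 of 1192 SST-higher regions (60.5%) it was nearer to PV than to SST. These 2 shares were not computed over all tested regions, so they do not show a difference between the directions. Both VIP libraries lay below both PV libraries in 1245 PV-higher regions (88.8%) and below both SST libraries in 870 SST-higher regions (73.0%). Over all tested regions these shares were 48.1% and 40.3%, and the median level was 8.57 CPM in VIP, 10.3 in SST and 10.5 in PV. The low-count filter used only the SST and PV libraries, so regions open in VIP alone were left out. These values are thus no measure of VIP in general. The median VIP level was 2.16 CPM in PV-higher regions, where SST had 2.20 and PV 10.5. In SST-higher regions it was 3.33 CPM, against 2.13 in PV and 11.1 in SST. These shares use the SST and PV libraries that made the calls, so the levels of SST and PV are a description. Peaks called by the authors in single libraries, from the same reads, covered 92.8% of SST-higher regions in both SST libraries and 29.5% in both PV libraries, and for PV-higher regions 29.5% and 93.2%. Over all tested regions the shares were 76.1% and 77.3%.

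The genes that name the groups were checked first. Sst, the gene of somatostatin, held 2 tested regions and both were higher in SST. The region over its start, whose sequence is given above, had 33 and 32 reads in SST, 2 and 2 in PV and 4 and 4 in VIP. The groups are far apart, and the difference was 3.82 (SE 0.56, adjusted p = 0.0109, edgeR). A second region 1.94 kb upstream, at chr16:23892540-23893247, had 10 and 24 reads in SST, none and 3 in PV, and differed by 3.26 (SE 0.80). Pvalb, which encodes the calcium buffer parvalbumin, held 2 tested regions. Its intron region at chr15:78195158-78196165 had 22 and 41 reads in PV, 7 and 8 in SST and 3 and 2 in VIP, a difference of -2.20 (SE 0.50, adjusted p = 0.0229, edgeR). The other region had 39 and 29 reads in PV and 25 and 27 in SST, and missed the threshold with -0.51 (SE 0.36, adjusted p = 0.427, edgeR). Its middle is 2.095 kb from the start of the gene, and it counts as a promoter through another coding transcript start. Neither region covers the start of Pvalb itself.

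Over the 20 listed SST markers, 38 regions in or up to 5 kb upstream of the genes were tested, of which 6 (15.8%) were higher in SST and 1 (2.63%) in PV. Over such windows of all genes the shares were 2.79% and 3.46%. A region in the window of a gene need not act on it. Beside Sst these were regions of Nos1, Pdyn and Elfn1. In an intron of Nos1, the gene of neuronal nitric oxide synthase, SST had 15 and 19 reads, PV none and 1 and VIP 4 and 9. At the start of Pdyn, the prodynorphin gene, SST had 17 and 22 and PV 3 and 2, with a difference of 2.77 (SE 0.54, adjusted p = 0.0147, edgeR). Elfn1 encodes a synaptic adhesion protein that recruits mGluR7 to inputs onto SST cells. Its region at chr5:139931735-139932666 had 34 and 47 reads in SST and 10 and 9 in PV, and a second one 13 and 12 against 1 and 2, while VIP, with 28 and 23 in the second, was above SST. Reln ran the other way with an intron region of 3 and 5 reads in SST and 20 and 12 in PV. Grin3a, a glutamate receptor subunit gene, had no called region in its own window, where 2 promoter regions had differences of 1.32 and 0.95. A region 161 kb from its start had 22 and 36 reads in SST and 1 in each PV library, a difference of 4.56 (SE 0.66, adjusted p = 0.0106, edgeR).

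Over the 18 listed PV markers 68 regions were tested, 7 (10.3%) higher in PV and 2 (2.94%) in SST, against 3.46% and 2.79% over the windows of all genes. The PV-higher ones were in Pvalb, Syt2 and Btbd11. Syt2 encodes the fast calcium sensor of release at basket cell terminals. Its intron region at chr1:134727068-134727902 had 11 and 19 reads in PV, 2 and 1 in SST and 1 in each VIP library, a difference of -3.35 (SE 0.68, adjusted p = 0.0161, edgeR). A second region in Syt2 had 18 and 23 reads in PV and 5 and 8 in SST, and the other 5 of its 7 regions did not pass. Btbd11, whose product sits at excitatory synapses onto interneurons, held 4 PV-higher regions among 14 tested. Its leading one had 13 and 12 reads in PV and none and 2 in SST. Esrrg, the gene of an oestrogen-related receptor that is on the list for its place in PV cells, held an SST-higher intron region, 18 and 19 reads against 1 and 3. Tmem132c, with 23 and 29 against 8 and 8, was the other. So the sign of a single intron region and the name of the marker list did not always go together. With at least 40 reads the SST list had 3 SST-higher (8.57%) and 1 PV-higher (2.86%) regions of 35. The PV list then had 1 (1.61%) and 3 (4.84%) of 62, and the windows of all genes had 1.74% and 2.20%. Without SST replicate 1 the windows of all genes had 12.1% SST-higher and 9.86% PV-higher regions. In that fit the SST list had 13 (25.0%) and 2 (3.85%) of 52, and the PV list 7 (6.80%) and 14 (13.6%) of 103. Without the PV replicates or with DESeq2 the windows of all genes had from 0.295% to 0.422% SST-higher and from 0.354% to 0.535% PV-higher regions. Without PV replicate 1 they had 2 and 0 of 50, and 0 and 1 of 93. Without PV replicate 2 they had 3 and 0 of 54, and 1 and 1 of 89, and with DESeq2 1 and 0 of 38, and 0 and 0 of 68.

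Peptides and their receptors gave no PV-higher call in this fit. Of 13 regions tested at 16 neuropeptide genes, 3 (23.1%) were higher in SST, against 2.79% over the windows of all genes, at Sst and Pdyn, which are on the SST list too. Of 35 regions of 17 peptide receptor genes, 2 (5.71%) were higher in SST and none in PV, both at the start of Sstr1, which encodes a somatostatin receptor. The former had 23 and 32 reads in SST and 5 and 5 in PV, the latter 17 and 25 against 6 and 4. These regions overlap, so they are no independent counts. The receptor genes had 1 PV-higher region when scaled by library size, with the replicate block or with all 6 libraries, and all 6 libraries gave 1 PV-higher peptide region too. Without SST replicate 1 the receptors had 7 SST-higher (15.2%) and 3 PV-higher (6.52%) regions of 46, against 12.1% and 9.86% over the windows of all genes, without PV replicate 1 they had 1 and 0 of 47, and without PV replicate 2 none of 45. DESeq2 called no receptor region and 1 peptide region. The peptide genes kept fewer SST-higher regions without PV replicate 1 or PV replicate 2. Without SST replicate 1 their SST-higher share was nearer to that of all gene windows than in the reported fit.

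Ion channel genes listed for fast-spiking cells had calls both ways, and not every listed gene is particular to such cells. Of 68 regions of these 20 genes, 5 (7.35%) were higher in SST and 4 (5.88%) in PV, against 2.79% and 3.46% over the windows of all genes. The SST-higher ones were 3 regions of Kcnq3, an M-current channel gene, and 1 each in Kcnc4 and Scn8a. At chr15:66239021-66239912 in Kcnq3, SST had 30 and 47 reads, PV 6 and 5 and VIP 64 and 73, a difference of 2.64 (SE 0.47, adjusted p = 0.0125, edgeR). Kcnc4, the Kv3 family member Kv3.4, had 25 and 55 reads in SST and 7 and 9 in PV. PV-higher regions lay in Cacna1a, Kcna2, the T-type calcium channel gene Cacna1h and at the start of Scn4b. The start of Scn4b, whose product is the beta subunit tied to resurgent sodium current, had 32 and 37 reads in PV and 12 and 13 in SST, a difference of -1.59 (SE 0.40, adjusted p = 0.0333, edgeR). Regions of Kcnc1 and Kcnc2, the Kv3 genes best known from PV cells, were not among the calls. No region of this list was called without PV replicate 1 (of 101) or without PV replicate 2 (of 98), DESeq2 called 1 and 0, and without SST replicate 1 the counts were 9 (8.91%) and 6 (5.94%) of 101, below the 12.1% and 9.86% of all gene windows in that fit.

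Among 82 regions of 26 glutamate and GABA receptor genes, 5 (6.10%) were higher in SST, against 2.79% of all gene windows. In PV 3 (3.66%) were higher, near the 3.46% of all gene windows. Grik3 and Grik1, both kainate receptor genes, were on the SST side, with 33 and 43 against 6 and 7 reads in Grik3 and 11 and 19 against 3 and 0 in Grik1. Gabbr2 gave 2 SST-higher regions. Grin2b had 1 region higher in SST and 2 in PV, and Grm7 1 higher in PV, with 12 and 10 reads against 1 and 2. In this list too no region was called without PV replicate 1 (of 121) or PV replicate 2 (of 127). The counts were 12 (9.30%) and 5 (3.88%) of 129 without SST replicate 1, also below all gene windows in that fit, 2 and 2 of 111 without SST replicate 2, and 1 and 0 with DESeq2 or with at least 40 reads. Perineuronal net genes encode the matrix that wraps PV cells. They gave 3 PV-higher (9.38%) and 1 SST-higher region (3.1%) of 32, against 3.46% and 2.79% of all gene windows. Acan, the aggrecan core protein gene, had 27 and 22 reads in PV and 8 and 7 in SST in an intron, and the start of Bcan had 25 and 20 against 4 and 9. Tnr had 1 intron region each way, 19 and 22 reads in SST against 3 and 3 in PV, and 2 and 6 against 26 and 20. The count of PV-higher regions in this list was 0 of 40 without PV replicate 1, 1 of 43 without PV replicate 2 and 8 of 44 (18.2%, against 9.86% of all gene windows) without SST replicate 1, and DESeq2 called no region of it.

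Transcription factor genes of interneurons gave 1 call in SST (1.28%) and 2 in PV (2.56%) of 78 regions, both shares below those of all gene windows (2.79% and 3.46%). The SST-higher one was at Npas1, a repressor gene better known from VIP and other caudal eminence cells. At chr7:16475549-16476263 it had 22 and 21 reads in SST, none and 1 in PV and 44 and 40 in VIP, a difference of 5.00 (SE 0.77, adjusted p = 0.0115, edgeR). The start of Etv1 had 75 and 67 reads in PV and 33 and 35 in SST, and an intron region of Bcl11b 56 and 39 against 21 and 18. The other 20 genes of this list with a tested region had no call. Without SST replicate 1 the counts were 2 (1.90%) and 9 (8.57%) of 105, against 12.1% and 9.86% of all gene windows, without SST replicate 2 1 and 5 of 107, without PV replicate 1 1 and 0 of 99 and without PV replicate 2 1 and 0 of 101, and DESeq2 called none. Of 102 regions of 24 synaptic adhesion genes, 2 (1.96%) were higher in SST, both in Elfn1, and 4 (3.92%) in PV, in Nrxn3, Slit3, Nxph1 and Cntnap4, which is near the shares of all gene windows. No region of this list was called by DESeq2, without PV replicate 1 (of 122) or without PV replicate 2 (of 129), and without SST replicate 1 there were 6 (4.65%) and 18 (14.0%) calls of 129. Energy metabolism regulators had 2 SST-higher (5.88%) and 3 PV-higher (8.82%) of 34, against 2.79% and 3.46% of all gene windows. Ppargc1b held calls both ways, 1 SST-higher and 2 PV-higher, and Esrrg, on this list too, an SST-higher one. The PV-higher Esrrb intron region, printed above, had 20 and 22 reads in PV, 3 and 2 in SST and 13 and 9 in VIP. Its difference was -3.14 (SE 0.55, adjusted p = 0.0125, edgeR). The energy list had no call with DESeq2, 0 and 1 of 42 without PV replicate 1, 1 and 0 of 48 without PV replicate 2 and 4 (7.55%) and 5 (9.43%) of 53 without SST replicate 1. None of 17 regions of the GABA synthesis and transport genes, which both subtypes use, was called, though without SST replicate 1 there was 1 call each way of 27 (3.70%).

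Markers of cells that neither sort should hold gave 2 calls, 1 each way (1.75% each, against 2.79% and 3.46% of all gene windows). Without SST replicate 1 they gave 9 SST-higher (13.8%) and 2 PV-higher (3.08%) regions of 65, where 12.1% and 9.86% of all gene windows' regions were called, without SST replicate 2 2 each way of 70, and without PV replicate 1 or PV replicate 2 none of 71 and of 72. Of 57 regions in 6 such lists, Slc1a3, an astrocyte transporter gene, had an intron region of 20 and 15 reads in PV and 3 and 3 in SST, and Camk2a, of excitatory neurons, a promoter of 49 and 74 reads in SST and 18 and 26 in PV. Reads summed over the astrocyte genes came to 160 and 161 CPM in SST and 155 and 190 in PV. For excitatory neurons they were 286 and 289 against 266 and 294, for oligodendrocytes 219 and 223 against 225 and 236, for microglia 242 and 247 against 198 and 232, for vascular cells 90.6 and 88.4 against 97.1 and 91.7, and for VIP cells 276 and 236 against 269 and 266. SST and PV overlapped in all of these but oligodendrocytes, microglia and vascular cells, where the gaps were small. The sums can hide single members. Sox10, of oligodendrocytes, had 9 and 9 reads in SST and 18 and 20 in PV, a difference of -1.25. Emx1, of excitatory neurons, had 17 and 36 in SST and 6 and 12 in PV, a difference of 1.35. Neither passed the threshold in the test of reads summed per gene. No listed gene with a region was at 0 reads in either group. What part such cells have in the calls was not tested.

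When reads were summed over the body and 5 kb upstream of each of 15544 protein-coding genes, no gene passed the threshold. The smallest adjusted p was 0.0803 (edgeR), 15 genes were under 0.10 and 1987 had an unadjusted p under 0.05, of which 1000 leaned to SST and 987 to PV. DESeq2 called 17 genes, and without SST replicate 1 or SST replicate 2 edgeR called 3675 and 572. The gene with the smallest p was Tmsb10, with 60.9 CPM in SST and 7.39 in PV, a difference of 3.04 (SE 0.38). There VIP, with 149 and 166 reads, lay with SST, which had 79 and 161. Sst was next with 43 and 56 reads in SST, 2 and 5 in PV and 5 and 6 in VIP, a difference of 3.59 (SE 0.46). Elfn1 had 151 and 162 reads in SST against 46 and 43 in PV, and VIP had 189 and 173. Others among the 12 on the SST side were Klf10, Pgpep1l, Bglap3, Arc, 1700013F07Rik, Jup, Rlbp1 and Tm7sf3. Arc, an activity-regulated gene, had 175 and 230 reads in SST, 72 and 74 in PV and 162 and 213 in VIP. VIP lay nearer to PV in Bglap3 (11 and 12 reads) and 1700013F07Rik (91 and 116). The 12 on the PV side were Lmcd1, Itih2, Rab32, Vmn1r217, Syt2, Ccn4, Cemip, Elk3, Hs3st3a1, Mypn, Tlr4 and Adamts3. Syt2 had 228 and 227 reads in PV and 96 and 126 in SST, a difference of -1.22 (SE 0.19). Pvalb itself had 65 and 77 in PV and 32 and 40 in SST, -1.17 (SE 0.28, adjusted p = 0.220, edgeR). The median over all genes was -0.01. It was 0.50 over 18 tested SST markers and -0.26 over 17 tested PV markers, and the lowest SST marker was Cort, the cortistatin gene, with 18 and 15 reads in SST and 32 and 41 in PV, a value of -1.32 (SE 0.36, adjusted p = 0.246, edgeR). Crhbp and Cbln4, SST markers as well, had -0.26 and -0.33.

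Some genes had several called regions, in 1 direction or in both. The 2594 regions had 2058 nearest genes, and 408 of these had 2 or more. In 96 of the 408 all were higher in SST, in 141 all were higher in PV and in 171 they went both ways. Stim2, an endoplasmic calcium sensor gene, had 5 SST-higher regions of 9 tested, and Elfn1 4 of 7. Psd3 had 4 PV-higher regions of 7, Tspan11 4 of 10 and Utrn 4 of 16. Every tested region nearest to Anapc4 (3) was higher in SST, and every one nearest to Bbox1 (3) and Mypn (3) was higher in PV. Noct (3 and 2) and Myc (2 and 3) had both. These genes were picked from the counts after their values were seen, no number expected from the tested regions of a gene was computed, and regions of 1 gene can share reads at their edges.

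Short motifs in the central 300 bases differed between SST-higher and PV-higher regions. Shares are given for regions whose middle was over 1 kb from every start, 1026 higher in SST, 1315 higher in PV and 17658 tested. The POU motif ATGCAAAT, of the factors that include POU3F and POU2F, was in 5.75% of SST-higher, 1.06% of PV-higher and 2.04% of all such regions. The RFX motif was in 3.02%, 0.304% and 0.980%. AP-1 (TGANTCA), the site of Fos and Jun, was in 20.5%, 12.5% and 15.7%. E-boxes, bound by basic helix-loop-helix factors, were also most frequent in SST-higher regions, with PV-higher regions near all tested ones, CAGCTG with 51.2%, 41.5% and 39.6% and CAGATG with 42.0%, 31.5% and 30.8%. On the PV side lay the ERR motif TCAAGGTCA, in 1 SST-higher region (0.0975%), 23 PV-higher ones (1.75%) and 0.532% of all. The ROR-type motif was in no SST-higher region, 23 PV-higher ones (1.75%) and 0.459% of all. The ERR and ROR-type motifs share the letters AGGTCA. The MEF2 motif was searched with its middle letters left free, so a match need not be a MEF2 site. It was in 2.05%, 6.16% and 4.36%, and the homeodomain motif TAATTA in 5.26%, 7.60% and 4.89%. The CTCF motif was rarer in both, with 4.29% and 4.64% against 10.6%.

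**Figure D4:**
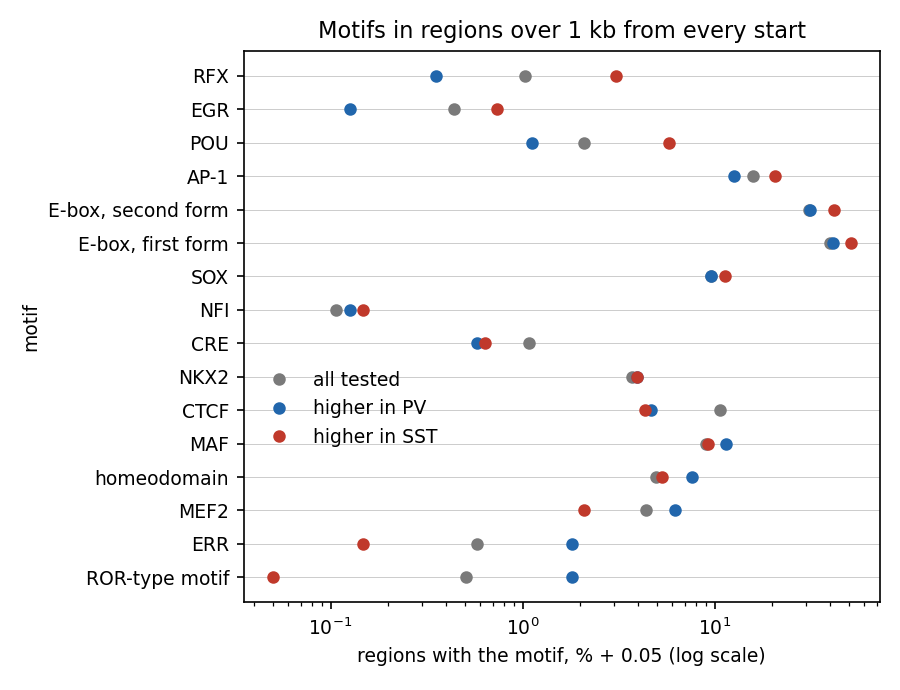
Share (%, plus 0.05, log scale) of regions over 1 kb from every start whose central 300 bases hold each of 16 motifs, for regions higher in SST (red), higher in PV (blue) and all tested (grey), ordered by the ratio of SST to PV. The first E-box form is CAGCTG and the second CAGATG; SST lies farthest to the right of PV for RFX and EGR at the top, and PV farthest to the right of SST for ERR and the ROR-type motif at the bottom.

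Both strands were searched. A match shows only that the letters are there, and regions are not replicates, so no test was made. Over the 11 other sets of calls that gave any region, the POU share ran from 4.51% to 6.45% in SST-higher and from 1.03% to 1.83% in PV-higher regions, the RFX share from 1.94% to 3.11% and from 0% to 0.403%, and the MEF2 share from 0.474% to 2.85% and from 6.19% to 8.25%. The ERR share ran from 0% to 0.645% and from 1.11% to 1.72%. For the E-box CAGCTG the shares ran from 45.3% to 60% and from 40.1% to 45.6%. For CAGATG they ran from 33.4% to 42.9% and from 30.2% to 35.6%. The SST and PV ranges of both E-boxes thus overlap. The central windows had a median of 52.0% G and C in SST-higher and 51.7% in PV-higher regions over 1 kb from every start, and 53.3% in all such regions.

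RNA of the genes that held called regions was read in nuclei of visual cortex, deposited as 1 sample of 10 libraries from 2 animals, 5 libraries each. Nuclei with a UMI of Gad1 or Gad2, none of Slc17a7 or Vip, and a UMI of either Sst or Pvalb but not both gave 637 Sst nuclei (median 1021 UMIs) and 458 Pvalb nuclei (median 1257). These genes chose the nuclei and are no finding, and no test was made over 2 animals. A single UMI of Sst or Pvalb was enough, and how many nuclei got it from RNA outside them was not tested. The library names carry 2 numbered sets of 5, whose match to the animals is not given in the sources used here. Genes with at least 20 UMIs that held SST-higher regions alone numbered 311, and their median log2 ratio of Sst over Pvalb nuclei was 0.15. For 417 genes with PV-higher regions alone it was -0.20, for 47 with both 0.10, and for 7650 with tested but no called regions -0.04. Of the 311, 58.2% had more RNA in Sst nuclei, against 35.3% of the 417 and 46.8% of the 7650. A ratio over 2-fold towards Sst was seen in 76 of the 311 (24.4%) and 21 of the 417 (5.04%), against 6.00% of the 7650. One over 2-fold towards Pvalb was seen in 18 (5.79%) and 68 (16.3%), against 4.72% of the 7650. Most genes of either kind thus had an RNA ratio within 2-fold. Where a gene held 2 or more regions of 1 direction and none of the other, the medians were 0.48 over 35 genes and -0.27 over 59.

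**Figure D5:**
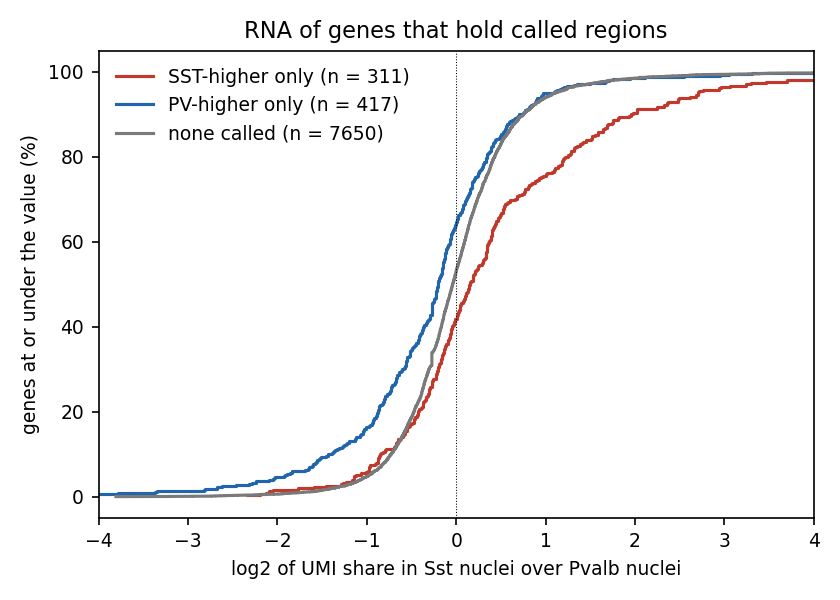
Cumulative share of genes (%) by the log2 ratio of their UMI share in Sst nuclei over Pvalb nuclei, for genes whose windows hold only SST-higher regions (red, n = 311), only PV-higher regions (blue, n = 417) or tested regions with none called (grey, n = 7650). Above 0 the red curve lies to the right of the grey one, and below 0 the blue one lies to its left, with medians of 0.15, -0.20 and -0.04.

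In the first numbered set of libraries, with 326 Sst and 181 Pvalb nuclei, the medians were 0.20 on the SST side, -0.23 on the PV side and -0.05 with no call. In the other set, with 311 and 277, they were 0.16, -0.22 and -0.02. These medians moved with the set of calls. Without SST replicate 1 the SST-side median was -0.02 over 2060 genes, without SST replicate 2 0.05, without PV replicate 1 0.53 over 45 and without PV replicate 2 0.50 over 71. On the PV side they ran from -0.20 to -0.03 over all other sets of calls. Single genes were often far apart. Their UMI counts come from pools of unequal size, 747674 UMIs in Sst nuclei and 619078 in Pvalb nuclei, which the ratios take into account. Elfn1 had 223 UMIs in Sst nuclei (97 and 126 in the numbered sets) and 2 in Pvalb nuclei (1 and 1), a ratio of 92.3 (95% exact interval 25.3 to 767, counting error only). Pdyn had 241 and 1, and Grin3a 667 and 5. Stim2 had 84 and 12, a ratio of 5.80 (3.15 to 11.7), Kcnc4 67 and 8, a ratio of 6.93 (3.32 to 16.7), and Grik3 111 and 23, a ratio of 4.00 (2.53 to 6.56). Tmsb10 had 61 and 12. On the other side Syt2 had 12 (2 and 10 by set) and 364 (113 and 251), 36.6-fold more in Pvalb nuclei (20.7 to 71.6), Btbd11 48 and 200, Bcan 36 and 142, Cntnap4 39 and 139 and Scn4b 11 and 46. Esrrg and Tmem132c, each with an SST-higher region, had more RNA in Pvalb nuclei, 104 against 30 and 104 against 27. Nxph1, whose start was more accessible in PV, had 311 UMIs in Sst nuclei and 216 in Pvalb nuclei, a ratio of 1.19 (1.00 to 1.42). Grm7, with a PV-higher region, had 81 UMIs in Sst nuclei and 17 in Pvalb nuclei, a ratio of 3.95 (2.32 to 7.10). Utrn and Psd3 were each nearest to 4 PV-higher regions. Utrn had 163 and 85, a ratio of 1.59 (1.21 to 2.09). Psd3 had 130 and 88, a ratio of 1.22 (0.926 to 1.62), an interval that includes equal shares. Scn8a, with an SST-higher region, had 369 and 562, a ratio of 0.544 (0.475 to 0.621). Npas1 had 9 and 0. The Sst nuclei held more UMIs of vascular markers, 135 of Flt1 and 48 of Cldn5 against 2 and 0, and the list came to 3.62 UMIs per 10000 against 0.372 in Pvalb nuclei. Excitatory markers came to 2.81 against 1.87, with 36 UMIs of Tbr1 against 10 and 14 of Emx1 against 1. What part such RNA has in the ratios was not tested.

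Candidate elements that the study had screened, called GREs, were chosen by it on these same libraries for accessibility in SST and on conservation, so their side and score are fixed by that choice. Of the 287, only 21 passed the filter, all 21 were higher in SST, and their differences ran from 2.61 to 4.76. GRE262 is the Kcnj2 region and GRE222 the Sst start. GRE65 is the region far from Grin3a, and GRE267 had 39 and 40 reads in SST, 5 and 6 in PV and 2 and 2 in VIP. These 21 had a median of 38 reads over the 4 libraries, and the others did not pass the filter.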

How the data were processed

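ATAC-Seq libraries of INTACT-purified cortical nuclei (2 SST, 2 PV, 2 VIP) were analysed. The submitters' processing notes name Trimmomatic 0.33, Subread 1.4.6-p3, MACS2, HOMER and featureCounts and the builds mm10 and GRCm38. The authors counted reads over 323369 regions drawn from many cortical experiments, and the deposited counts are not normalized. The mean phyloP score of each region and the −log10 q-value of each peak are the authors' deposited values. Their columns of specificity were not used.

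SST was tested against PV with edgeR 4.0.16 (quasi-likelihood, TMM, filterByExpr, Benjamini-Hochberg over all 31990 regions) in R 4.3.3, and so were reads summed per gene over the gene body and 5 kb upstream. The common biological coefficient of variation was 0.207 for regions and 0.159 for genes. Each SE is the absolute log2 difference divided by the square root of the F value, and is no separate estimate of the spread. Alternatives were DESeq2 1.42.0, other scalings and filters, all 6 libraries, a replicate block and leaving out each library. In simulated tables with 200 features shifted by a log2 value of 2, edgeR found 141 of them among 31990 regions, with 8 false calls, and 194 among 15544 genes, with 9. The simulated features all had the common spread, alike in both groups. The libraries need not be so, and the simulation cannot give the false share of the reported calls. Regions were placed with protein-coding genes of GENCODE on GRCm38, and no region end lay beyond its chromosome. A peak counted with 1 shared base. Of the called regions, 3 lie on the mitochondrial genome.

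Nuclei counts are the authors' deposited UMI counts without normalization. Nuclei with over 200 non-viral UMIs were kept, 32335 of 47348 barcodes. No doublet was removed, and barcode names recur between the 10 libraries (15873 over all pairs of libraries). Ratios have a pseudocount of 0.5 in medians, and intervals are exact, 95%, and cover counting error only. Calculations used python 3.11.15.

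Named were the 12 regions with the smallest p in each direction (1 per nearest gene, groups not overlapping in CPM), the 12 genes with the smallest p in each direction, Sst and Pvalb, up to 4 called members of each of 17 gene lists, and screened GREs that passed the filter. One of the genes that this rule names is not reported here. Any other gene in the text, such as one with several called regions, was picked with its values in view. The members, lists and motifs were chosen with earlier results of these data known. Motif shares, list counts and RNA ratios under other sets of calls, and RNA ratios by set of libraries, were added after the data were seen. The replicates are single animals, and with 2 a group the spread between them is poorly known.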

Additional observations from a re-analysis of the deposited data

How the results depend on the processing

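Counts of regions higher in SST and in PV stayed within 1.5 times of the reported ones with RLE factors (1194 and 1440), library size alone (1034 and 1560), loess offsets (1413 and 993) and all 6 libraries in the fit (1597 and 1747). With at least 40 reads they were 683 and 851 (1534 in all), with DESeq2 176 and 171 (347), and with no filter on low counts 0 and 0 of 301958 regions, of which 21196 had an unadjusted p under 0.05. Leaving out 1 library gave from 170 to 5123 regions higher in SST and from 196 to 4306 higher in PV, 366 to 9429 in all. For genes, with none called as reported, no filter gave 5 and 4 (9), DESeq2 10 and 7 (17), all 6 libraries 26 and 13 (39), windows of 50 kb on each side 16 and 18 (34), and leaving out 1 library from 0 to 1774 and from 0 to 1901 (0 to 3675). The other scalings, at least 40 reads and windows of 2 kb around starts gave 0. The cause of these moves was not tested.

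A replicate block gave 1660 and 1981 regions, and 173 and 195 genes (368). The numbers name single animals, and the correlation of deviations between samples of the same number was 0.0332 over regions and 0.0483 over genes. With so few libraries a group, these values cannot show whether samples of the same number were prepared or sequenced together. The labels do not say, and it was not tested.

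The share of called regions with conservation above 0.5 was 15.8%. With a threshold of 1.0 it was 2.93% (2.94% in SST-higher and 2.92% in PV-higher regions). With DESeq2's calls it was 19.9% in SST-higher and 12.3% in PV-higher regions, and without 1 library it ran from 13.2% to 18.2% in all, 14.6% to 19.1% in SST-higher and 12.1% to 17.2% in PV-higher regions. Of 95 named regions 62 lost the call with DESeq2, 60 without PV replicate 1, 55 without PV replicate 2 and all 95 with no filter. Among 30 named genes, the gene Kcns3 changed sign without SST replicate 2 (-0.0795, against 0.233 without SST replicate 1) and with windows of 50 kb (-0.22), and Crhbp with windows of 50 kb (0.29). Depth is one limit, with a median of 54 (SST-higher) and 49 (PV-higher) reads over 4 libraries in the called regions.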
